A study of Mus musculus with 12 samples.

Results

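CD41-positive and CD41-negative haematopoietic stem cells (HSCs) from the bone marrow of RUNX1 knockout mice were compared over all measured genes. The comparison rests on the 6 libraries labelled KO of the 12 in the series: 3 libraries of the CD41-positive gate (CD41pos) and 3 of the CD41-negative gate (CD41neg), whose labels KO1, KO2 and KO3 pair the gates and are called mouse 1, 2 and 3 here. Of 35869 genes in the table, 17969 passed the filter on low counts and were tested, and 17900 were left out. The KO genotype is MxCre1+/-, RUNX1f/f, and the WT controls are MxCre1-/-, RUNX1f/f, so both carry the floxed Runx1 allele and the controls lack the Cre transgene. All mice, KO and WT, were injected 4 times with poly(I:C), which mimics viral double-stranded RNA and triggers interferon, and were taken 4 weeks later. Mx1-Cre is driven by an interferon-responsive promoter and also acts outside blood cells, so deletion is not limited to HSCs. Age, sex, whether cells of several animals were pooled and the other surface markers of the HSC gate are not stated in these sources.

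RUNX1 is the DNA-binding partner of CBFB in core-binding factor and is needed for the maturation of megakaryocytes, the marrow cells that shed platelets. CD41 is integrin alpha-IIb, encoded by Itga2b, which pairs with integrin beta-3 to form the platelet fibrinogen receptor. A part of mouse HSCs carries CD41 and megakaryocyte transcripts while keeping stem cell function, and such cells are called megakaryocyte-primed or platelet-biased. The comparison therefore asks how HSCs of the 2 gates differ when the mice carry the Runx1 deletion.

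Total counts of the 6 libraries ranged from 50342270 to 58946457, with 23494 to 27097 genes having at least 1 count. Levels below are CPM, read counts scaled to a common library size over all 12 libraries, given in the order mouse 1, 2 and 3. Nothing in the labels says that libraries were made on separate days. The main test removes differences in level between mice. Its p-values rest on how far the gate difference varied among these 3 mice, with each gene's spread moderated by that of other genes. Mouse 2 stood apart from mice 1 and 3. Over 10206 genes, the SD of the log2 difference between 2 CD41neg libraries was 0.497 and 0.451 for the pairs with mouse 2 and 0.190 for mice 1 and 3, and in CD41pos it was 0.325 and 0.286 against 0.199. Xist, the RNA of the inactive X chromosome, stood at 0.985, 318 and 0.843 CPM in CD41pos and 0.901, 308 and 1.00 CPM in CD41neg, so the labelled mice were not all of 1 sex, and no test here separates sex from mouse.

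Runx1 itself (chr16:92601466-92826149, minus strand, GRCm38, GENCODE vM21) stood at 270.4, 382 and 325 CPM in CD41pos and 171, 157 and 163 CPM in CD41neg. In the libraries labelled WT it stood at 159, 141 and 147 CPM in CD41pos and at 84.0, 90.5 and 65.7 CPM in CD41neg. Counts over the whole gene were thus higher, not lower, in the libraries labelled KO. They do not check the deletion, since a Cre deletion removes only the floxed part, which the labels do not name and a count per gene cannot show. KO and WT below are the labels of the libraries. Between the KO gates Runx1 was higher in CD41pos by 0.97 ± 0.11 (log2, SE, adjusted p = 0.00545), with no overlap of the gates. Runx3 differed by 0.41 ± 0.07 (log2, SE, adjusted p = 0.0182), a call lost when all 12 libraries entered 1 fit (adjusted p = 0.2). Cbfb, the RUNX partner, rose by 0.60 ± 0.06 (log2, SE, adjusted p = 0.00337), and that call was also lost in the 12-library fit (adjusted p = 0.31). Runx2 stood at 42.9, 41.6 and 49.5 CPM in CD41pos and 58.7, 26.3 and 55.7 CPM in CD41neg, with overlapping gates and a difference of -0.00 ± 0.21 (log2, SE, adjusted p = 0.996).

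At an adjusted p below 0.05, 2222 of 17969 genes (12.4%) differed between the gates in KO, 1178 (6.56%) higher and 1044 (5.81%) lower in CD41pos, by edgeR's quasi-likelihood test with the mouse as a block. Among them 370 were higher and 405 lower by at least 1 on the log2 scale, and 132 and 120 by at least 2. The median over all tested genes was -0.02. The count depends on which libraries entered. It was 450 when the 6 WT libraries shared the fit, 367 without mouse 3, 1201 without mouse 1 and 3647 without mouse 2. Of the 2222 genes, 445 kept the call and direction in the 12-library fit and 364 did so without mouse 3.

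Itga2b (chr11:102453297-102470122, minus strand), the sorted antigen's gene, stood at 1028, 1268 and 1058 CPM in CD41pos and 270.1, 257 and 213 CPM in CD41neg. The sort fixes this direction, so its log2 difference of 2.17 checks the labels and is not a finding. Its partner Itgb3, integrin beta-3, was not used in the sort and stood at 102, 153 and 135 CPM in CD41pos and 14.6, 7.72 and 12.2 CPM in CD41neg. All CD41pos libraries lay above all CD41neg libraries, and Itgb3 was higher in CD41pos by 3.51 ± 0.28 (log2, SE, adjusted p = 0.00198).

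Genes of the platelet surface were higher in CD41pos HSCs. Of 24 platelet receptor genes tested, 16 rose and 1 fell, with a median log2 fold change of 1.24; 20 lay higher with no overlap of the gates, against 16.6% of all tested genes. Gp1bb, Gp9, Gp1ba and Gp5 encode the glycoprotein Ib-IX-V complex, the receptor for von Willebrand factor. Gp1bb stood at 33.8, 44.7 and 42.2 CPM in CD41pos and 2.08, 2.34 and 1.24 CPM in CD41neg, a difference of 4.43 ± 0.23 (log2, SE, adjusted p = 0.000735). Gp9 stood at 79, 93.2 and 84.3 CPM in CD41pos and 19.4, 20.3 and 15.8 CPM in CD41neg, and it was higher by 2.20 ± 0.10 (log2, SE, adjusted p = 0.000484). Neither gene's gates overlapped, and the 3 mice of a gate lay close together. Gp1ba and Gp5 rose by 1.53 and 1.30 (log2).

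Several receptors of platelet agonists were higher too. F2rl2 encodes PAR3, the thrombin cofactor receptor of mouse platelets, and stood at 96.8, 134 and 106 CPM in CD41pos and 15.6, 23.3 and 13.6 CPM in CD41neg. It was higher by 2.70 ± 0.11 (log2, SE, adjusted p = 0.00031), and mouse 2 was highest in both gates. Treml1, an alpha-granule membrane receptor, stood at 133, 142 and 130.0 CPM in CD41pos and 25.7, 29.6 and 20.0 CPM in CD41neg and was higher by 2.44 ± 0.10 (log2, SE, adjusted p = 0.000341). P2ry1, an ADP receptor, rose by 1.76 and Tbxa2r, the thromboxane receptor, by 2.49 (log2). The ADP receptor P2ry12 was below 1 CPM in both gates (means of 0.58 and 0.412), as was the collagen receptor Gp6 (0.319 and 0.160), and neither passed the test. Cd36, a scavenger receptor also found on erythroid cells, was the member that fell (-1.87, with means of 2.56 and 8.36 CPM). The 16 higher calls of the platelet receptor list became 11 in the 12-library fit and 12 without mouse 3. Its 1 lower call became 0 in both of these fits and with no replicate block.

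Cargo of the alpha-granule rose too. In the list of 23 platelet granule genes, 17 were called higher (73.9%, against 6.56% of all tested genes) and none lower. The median was 1.64. Thbs1, the adhesive granule protein thrombospondin-1, stood at 159.9, 344 and 203 CPM in CD41pos and 14.6, 31.8 and 13.9 CPM in CD41neg and was higher by 3.57 ± 0.11 (log2, SE, adjusted p = 0.000138). Vwf, von Willebrand factor, stood at 199, 306 and 285 CPM in CD41pos and 24.6, 45.5 and 28.3 CPM in CD41neg and was higher by 3.02 ± 0.12 (log2, SE, adjusted p = 0.00031). Mouse 2 had the highest value of both genes in each gate, and the gates did not overlap. Clu, the secreted chaperone clusterin, had the largest fitted increase of the named genes: it stood at 77.2, 120.2 and 96.2 CPM in CD41pos and 5.31, 1.22 and 2.30 CPM in CD41neg, a difference of 5.17 ± 0.50 (log2, SE, adjusted p = 0.00341).

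F13a1, the A subunit of coagulation factor XIII, varied with the mouse: it stood at 213, 90.5 and 129 CPM in CD41pos and 67.3, 23.6 and 36.7 CPM in CD41neg, with mouse 1 high and mouse 2 low in both gates. The gates did not overlap, and the difference was 1.79 ± 0.08 (log2, SE, adjusted p = 0.000361) with the block, against an adjusted p of 0.0503 without it. Rab27b, a GTPase of granule secretion, stood at 105, 133 and 109 CPM in CD41pos and 29.7, 30.1 and 23.8 CPM in CD41neg and was higher by 2.05 ± 0.10 (log2, SE, adjusted p = 0.000484). Pf4 and Ppbp, the platelet chemokines, rose by 2.88 and 1.81 (log2). Other members of the list did not pass the test: Vamp8 differed by 0.05, Unc13d by 0.05 and Nbeal2, needed for alpha-granule formation, by 0.08. The count of 17 became 11 without the block, 7 in the 12-library fit, 11 without mouse 1 and 8 without mouse 3; Thbs1 and F13a1 were among the calls lost in the 12-library fit (adjusted p = 0.06 and 0.0723).

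**Figure D1:**
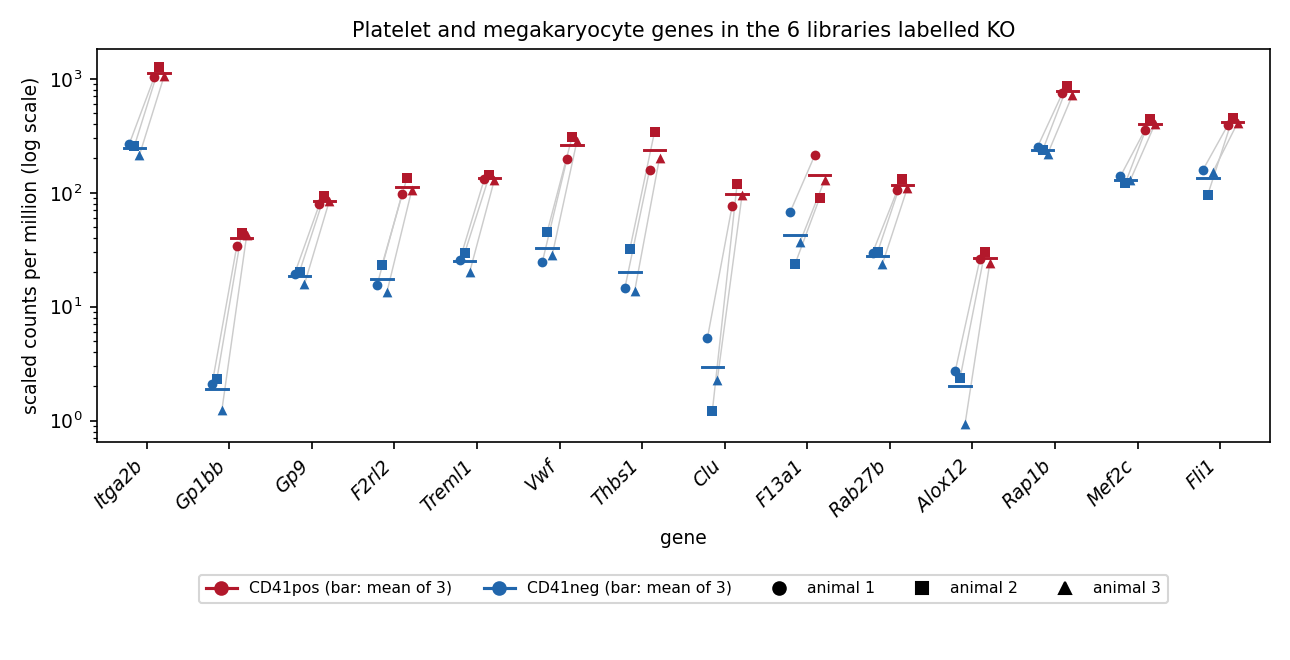
Levels of Itga2b and of platelet and megakaryocyte genes in the 6 libraries labelled KO, in CPM on a log axis. Each symbol is 1 library, its shape gives the mouse, thin lines join the gates of 1 mouse and bars are means of 3. For all 14 genes every CD41pos library lies above every CD41neg library; Gp1bb, Clu and Alox12 lie at a few CPM or below in CD41neg.

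Signalling and cytoskeletal genes of platelets gave 21 higher (70.0%) and 1 lower (3.3%) of 30 tested, against 6.56% and 5.81% of all tested genes. The median was 0.96. Alox12, platelet 12-lipoxygenase, stood at 26.1, 30.2 and 24.4 CPM in CD41pos and 2.70, 2.37 and 0.935 CPM in CD41neg and was higher by 3.83 ± 0.29 (log2, SE, adjusted p = 0.00191). Gucy1b3 and Gucy1a3 encode the subunits of soluble guanylate cyclase, the nitric oxide receptor. Gucy1b3 stood at 27.9, 34.4 and 28 CPM in CD41pos and 2.72, 0.894 and 0.969 CPM in CD41neg, a difference of 4.43 ± 0.39 (log2, SE, adjusted p = 0.00264), and Gucy1a3 rose by 2.09. Rap1b, the GTPase that activates integrin alpha-IIb beta-3, stood at 750.3, 868 and 719 CPM in CD41pos and 255, 237 and 219 CPM in CD41neg and was higher by 1.71 ± 0.07 (log2, SE, adjusted p = 0.00031). Ptgs1 (cyclooxygenase-1) and Tbxas1 (thromboxane synthase), successive enzymes of thromboxane synthesis, rose by 1.46 and 1.15, and Tubb1, the platelet beta-tubulin, by 1.58. Fermt3 (kindlin-3) rose by 0.60 ± 0.04 (log2, SE, adjusted p = 0.00183), and Prkcq, protein kinase C theta, by 1.11 ± 0.07 (log2, SE, adjusted p = 0.00133). Flna (filamin A), Myh9 (non-muscle myosin heavy chain) and Stim1 (a calcium sensor), which act in many cell types, did not pass the test (-0.17, 0.27 and 0.14), and Mylk3, a myosin light chain kinase, was the member that fell (-1.02). The 21 higher calls became 12 in the 12-library fit and 10 without mouse 3. The 1 lower call became 0 in the 12-library fit and with no replicate block.

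Of 28 transcription factors of the megakaryocyte and erythroid lineages, 8 rose (28.6%) and 3 fell (10.7%). The same shares were 6.56% and 5.81% of all tested genes. The median of the list was 0.04, so the factors did not move as a group. Fli1, an ETS factor of the megakaryocyte lineage, stood at 390.0, 451 and 410.3 CPM in CD41pos and 158, 96.4 and 152 CPM in CD41neg, a difference of 1.64 ± 0.17 (log2, SE, adjusted p = 0.00411). Mef2c, which acts in megakaryocytes and B cell progenitors, stood at 357, 448 and 401 CPM in CD41pos and 139, 121 and 128 CPM in CD41neg and was higher by 1.62 ± 0.10 (log2, SE, adjusted p = 0.0012). Meis1 and Etv6 also rose (0.74 and 0.47). Klf1, the erythroid Krüppel-like factor, fell by 1.79 on the log2 scale, from a mean of 326 CPM in CD41neg to 96.2 in CD41pos, and Myb and Bach2 fell too (-0.54 and -1.16). The core factors shared by both lineages did not pass the test: Gata1 differed by -0.17, Gata2 by 0.02, Tal1 by -0.02, Nfe2 by 0.03, Gfi1b by -0.21 and Zfpm1 by 0.22. The 8 higher calls became 4 in the 12-library fit and 4 without mouse 3, and the 3 lower calls became 2 and 1.

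The other genes with the largest increases were of mixed function. Kcnj5, an inwardly rectifying potassium channel subunit, stood at 76.9, 139 and 82.1 CPM in CD41pos and 4.15, 7.69 and 1.63 CPM in CD41neg and was higher by 4.60 ± 0.30 (log2, SE, adjusted p = 0.0014). Sdpr (Cavin2), a coat protein of caveolae, stood at 165, 195 and 165 CPM in CD41pos and 8.31, 8.62 and 6.78 CPM in CD41neg, and its difference of 4.46 ± 0.09 had the smallest spread of this set. Hs3st1, a heparan sulfate 3-O-sulfotransferase, stood at 40.2, 50.1 and 49.5 CPM in CD41pos and 3.14, 0.929 and 2.58 CPM in CD41neg and was higher by 4.47 ± 0.39 (log2, SE, adjusted p = 0.00257). Robo3, a receptor of axon guidance, Slc35d3, needed for platelet dense granules, Proser2, Amotl2, a junction protein, and Pls1 (plastin-1) completed the 12 highest, at 4.17, 3.96, 4.51, 4.07 and 3.99. In none of the 12 did the gates overlap.

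Erythroid genes were lower in CD41pos HSCs. Of 23 tested, 22 fell and none rose, with a median of -1.31, and all 23 lay lower in each of the 3 mice with no overlap of the gates, against 14.5% of all tested genes. Ermap, a membrane protein of erythroid cells, stood at 107, 46.2 and 73.1 CPM in CD41pos and 323, 486 and 412 CPM in CD41neg, a difference of -2.50 ± 0.32 (log2, SE, adjusted p = 0.00664). Ank1 (ankyrin-1), which anchors the membrane skeleton, stood at 11.1, 8.41 and 10.7 CPM in CD41pos and 39.5, 56.9 and 48.9 CPM in CD41neg and was lower by 2.27 ± 0.19 (log2, SE, adjusted p = 0.00223). Mouse 2 had the lowest Ermap in CD41pos and the highest in CD41neg.

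Other membrane skeleton and blood group genes fell as much: Rhd by 2.28 and Rhag by 1.81 on the log2 scale. Car1 (carbonic anhydrase 1) fell by 2.23, and Tfrc, the transferrin receptor that imports iron, fell by 1.31. Epor, the erythropoietin receptor, fell by 0.83. Globin genes fell less. Hba-a1 stood at 185, 138 and 195 CPM in CD41pos and 275, 227 and 308 CPM in CD41neg and Hbb-bt at 112, 102 and 126 CPM in CD41pos and 166, 153 and 199 CPM in CD41neg, differences of -0.66 ± 0.06 (log2, SE, adjusted p = 0.00257) and -0.61 ± 0.06 (log2, SE, adjusted p = 0.00337). The 2 alpha-globin genes are near-identical copies, so counts may be split between them. Both globin calls were lost in the 12-library fit (adjusted p = 0.859 and 0.874), where 12 of the 23 genes fell. In these bulk libraries, fewer cells of a type and less RNA per cell cannot be told apart.

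Among the 12 largest decreases outside the list were other genes known from red cell precursors. Pklr, red cell pyruvate kinase, stood at 11.1, 4.09 and 7.97 CPM in CD41pos and 37, 44.1 and 44.5 CPM in CD41neg and was lower by 2.54 ± 0.31 (log2, SE, adjusted p = 0.00603). Tspo2, a translocator protein of erythroid cells, was high in the CD41neg library of mouse 2: it stood at 3.83, 8.85 and 1.97 CPM in CD41pos and 12, 87 and 14.2 CPM in CD41neg. Its gates did not overlap, and its adjusted p was 0.00586 with the block and 0.0908 without it. Add2 (beta-adducin of the membrane skeleton) fell by 2.47, Sphk1 (sphingosine kinase 1) by 2.52. Atp1b2, a sodium pump subunit, stood at 39.2, 19.3 and 23.7 CPM in CD41pos and 125, 198 and 158 CPM in CD41neg, with an adjusted p of 0.00533. Slc25a21, a mitochondrial carrier, stood at 8.76, 5.95 and 6.02 CPM in CD41pos and 35.2, 56.7 and 44.2 CPM in CD41neg and had the largest decrease of the 12, -2.72 ± 0.24 (log2, SE, adjusted p = 0.00279). The transporters Slc38a5, Atp7b and Slc37a3 and the receptor kinase Mst1r fell by 2.45, 2.44, 2.57 and 2.62; for Mst1r the 12-library fit gave an adjusted p of 0.649.

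Genes of granulocyte-monocyte progenitors were higher in CD41pos. Of 22 tested (median 0.90), 12 rose (54.5%, against 6.56% of all tested genes) and none fell. Among them were genes of the primary granules of neutrophil precursors. Mpo (myeloperoxidase) stood at 2924, 1278 and 1729.5 CPM in CD41pos and 714, 297 and 539 CPM in CD41neg, and it was higher by 1.93 ± 0.09 (log2, SE, adjusted p = 0.000361). Elane (neutrophil elastase) stood at 559, 216 and 296 CPM in CD41pos and 142, 51.9 and 78.9 CPM in CD41neg and was higher by 1.97 ± 0.06 (log2, SE, adjusted p = 0.000138). Ctsg (cathepsin G) stood at 246, 113 and 135 CPM in CD41pos and 50.3, 22.7 and 36.5 CPM in CD41neg, a difference of 2.15 ± 0.10 (log2, SE, adjusted p = 0.000484), and Ms4a3 rose by 2.22 ± 0.13 (log2, SE, adjusted p = 0.00103). For these genes mouse 1 was highest and mouse 2 lowest in both gates, and the gates of each did not overlap.

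The transcription factors of the lineage moved less than its granule genes: Cebpa rose by 0.86, Cebpe by 1.72 and Irf8 by 0.86, while Spi1 (PU.1) differed by 0.30 and Gfi1 by -0.55 without passing the test. Of 11 mature neutrophil markers tested, 1 (Cxcr2, a chemokine receptor) rose (9.1%, near the 6.56% of all tested genes). The summed level of the list ranged from 43.1 to 51.6 CPM in CD41pos and from 23.9 to 193 CPM in CD41neg, where mouse 1 was highest. The median difference over these markers was -1.34 in mouse 1, 0.30 in mouse 2 and 0.57 in mouse 3, with 1, 8 and 10 of the 11 higher in CD41pos, and the fitted median was -0.09 with all 3 mice and 0.72 without mouse 1. The 12 higher calls became 6 without the block and 10 in the 12-library fit. Of 12 mast cell, basophil and eosinophil genes, Hdc (histidine decarboxylase) and Ms4a2 (an IgE receptor chain) rose by 1.62 and 1.52, and Il1rl1, the IL-33 receptor, fell by 0.90. These calls were 16.7% higher and 8.3% lower, against 6.56% and 5.81% of all tested genes. Cpa3, the mast cell carboxypeptidase, did not pass the test (0.48). In the 12-library fit 1 of these 12 genes rose and 0 fell.

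The promoters below show the 3 lineages side by side: platelet genes that rose (Gp9, Gp1bb, Treml1), erythroid genes that fell (Ermap, Rhag) and a granule gene that rose (Ctsg). Each is the 250 bases before the RefSeq start site on the gene's strand, 5′ to 3′, from GRCm38.p6. Capitals mark every match, on either strand, to 4 short motifs. The GATA motif was AGATAA, with TGATAA as its other form. The ETS motif was GGAAGT, with GGAAGC as its other form. For RUNX factors TGTGGT and likewise TGCGGT were searched, and for Krüppel-like factors (KLF) CCACACCC and likewise CCACGCCC. No marked matches overlap each other in these windows. The windows lie at chr6:87777820-87778069 for Gp9, chr16:18622404-18622653 for Gp1bb, chr17:48359666-48359915 for Treml1, chr4:119189996-119190245 for Ermap, chr17:40810899-40811148 for Rhag and chr14:56102575-56102824 for Ctsg, with Gp1bb, Ermap and Ctsg on the minus strand.
Gp9: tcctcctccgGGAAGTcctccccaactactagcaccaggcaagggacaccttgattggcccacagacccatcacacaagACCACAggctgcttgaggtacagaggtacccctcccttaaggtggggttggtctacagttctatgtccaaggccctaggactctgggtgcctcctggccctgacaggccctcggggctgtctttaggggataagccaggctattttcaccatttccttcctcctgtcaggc
Gp1bb: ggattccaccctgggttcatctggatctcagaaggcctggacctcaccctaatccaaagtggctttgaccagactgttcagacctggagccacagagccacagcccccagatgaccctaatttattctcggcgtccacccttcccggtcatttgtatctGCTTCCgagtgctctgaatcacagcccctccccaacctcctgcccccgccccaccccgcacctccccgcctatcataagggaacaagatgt
Treml1: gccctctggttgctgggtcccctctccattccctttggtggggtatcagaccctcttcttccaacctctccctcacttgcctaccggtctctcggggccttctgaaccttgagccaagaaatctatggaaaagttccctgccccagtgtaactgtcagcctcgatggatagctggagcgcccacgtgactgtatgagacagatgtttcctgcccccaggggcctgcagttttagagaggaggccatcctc
Ermap: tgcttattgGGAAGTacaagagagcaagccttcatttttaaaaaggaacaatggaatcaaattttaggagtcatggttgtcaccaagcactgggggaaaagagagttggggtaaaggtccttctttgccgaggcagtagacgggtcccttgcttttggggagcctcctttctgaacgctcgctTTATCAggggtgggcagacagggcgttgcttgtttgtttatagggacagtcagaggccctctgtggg
Rhag: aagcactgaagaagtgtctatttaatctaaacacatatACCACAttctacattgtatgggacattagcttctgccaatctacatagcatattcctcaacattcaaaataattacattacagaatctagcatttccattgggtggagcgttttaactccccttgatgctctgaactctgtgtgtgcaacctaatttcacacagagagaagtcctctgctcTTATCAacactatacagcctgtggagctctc
Ctsg: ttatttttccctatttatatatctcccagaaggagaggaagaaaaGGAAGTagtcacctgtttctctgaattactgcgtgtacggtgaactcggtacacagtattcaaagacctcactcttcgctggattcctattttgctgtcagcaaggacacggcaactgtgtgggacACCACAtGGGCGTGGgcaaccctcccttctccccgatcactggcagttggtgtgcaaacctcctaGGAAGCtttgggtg

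Ermap has a GATA match 67 to 62 bases before the start and Rhag has one at 31 to 26, both as TTATCA, the reverse complement of TGATAA. Gp9 has an ETS match at 240 to 235 bases and a RUNX match at 171 to 166, Gp1bb has an ETS match at 91 to 86, and Treml1 has none of the 4. Ctsg has ETS matches at 205 to 200 and 14 to 9, a RUNX match at 79 to 74 and a KLF match at 72 to 65. A GATA match lay in 10 of the 16 erythroid list promoters in the table (62.5%), in 11 of 59 platelet list promoters (18.6%) and in 0 of 18 granulocyte-monocyte promoters. The same share was 11% over 12607 tested genes with a promoter entry and 17.0% over all 27025 promoters. GATA matches lay in 10.3% of the promoters of genes called higher and 13.2% of those called lower. A RUNX match lay in 17.8% of the promoters of genes called higher, 19.5% of those called lower and 18.0% of those tested. By list, RUNX matches lay in 11 of 59 platelet (18.6%), 4 of 16 erythroid (25.0%) and 7 of 18 granulocyte-monocyte promoters (38.9%). A match is a string of letters, not a measured binding site.

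Lymphoid priming genes were lower in CD41pos. Of 22 tested, 10 fell (45.5%, against 5.81% of all tested genes) and none rose. The median was -1.28, and 15 were lower in all 3 mice. Flt3, the receptor tyrosine kinase of lymphoid-primed progenitors, stood at 11.5, 4.55 and 13.7 CPM in CD41pos and 49.7, 14.4 and 46.9 CPM in CD41neg, a difference of -1.87 ± 0.13 (log2, SE, adjusted p = 0.00182). Mouse 2 was low in both gates, the CD41pos libraries lay just below the lowest CD41neg library, and without the block the adjusted p was 0.0753. Dntt, the terminal transferase of early lymphocytes, stood at 11.4, 3.33 and 4.51 CPM in CD41pos and 39.6, 14.6 and 30.6 CPM in CD41neg and fell by 2.23, a call lost without the block (adjusted p = 0.0508). Blnk, an adaptor of B cell receptor signalling, stood at 4.83, 2.12 and 3.25 CPM in CD41pos and 18, 7.48 and 12.6 CPM in CD41neg, a difference of -1.90 ± 0.15 (log2, SE, adjusted p = 0.00219), and Igll1, a surrogate light chain, at 3.83, 1.51 and 2.23 CPM in CD41pos and 17.1, 5.04 and 10.2 CPM in CD41neg, a difference of -2.05 ± 0.18 (log2, SE, adjusted p = 0.00271). Rag1 and Rag2, which cut antigen receptor genes, fell by 2.05 and 1.94, from means below 5 CPM, and Ikzf1 (Ikaros) by 0.92.

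Some markers of mature lymphocytes were lower too. Of 9 B and plasma cell markers tested, 5 fell (55.6%, against 5.81% of all tested genes) and none rose (median -1.90). Their summed level ranged from 65.3 to 115 CPM in CD41pos and from 109 to 230 CPM in CD41neg. Cd79a and Jchain, the joining chain of secreted antibodies, fell by 2.12 and 2.12. Of 15 T and NK cell markers, 5 fell (33.3%) and 1 (Nkg7, also present in myeloid progenitors) rose (6.7%), against 5.81% and 6.56% of all tested genes. Cd3e, a T cell receptor subunit, had means of 0.605 and 2.22 CPM. The summed level of the T and NK list, most of it Nkg7, ranged from 87.8 to 147 CPM in CD41pos and from 58.2 to 109 CPM in CD41neg. The part of such cells in the lymphoid result was not tested. The 10 lymphoid priming calls became 7 without the block, 2 in the 12-library fit, 6 without mouse 3 and 17 without mouse 2, and the 5 B and plasma cell calls became 0 without the block and 0 in the 12-library fit. The 5 lower T and NK calls became 1 without the block, 0 in the 12-library fit, 0 without mouse 1, 9 without mouse 2 and 0 without mouse 3.

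**Figure D2:**
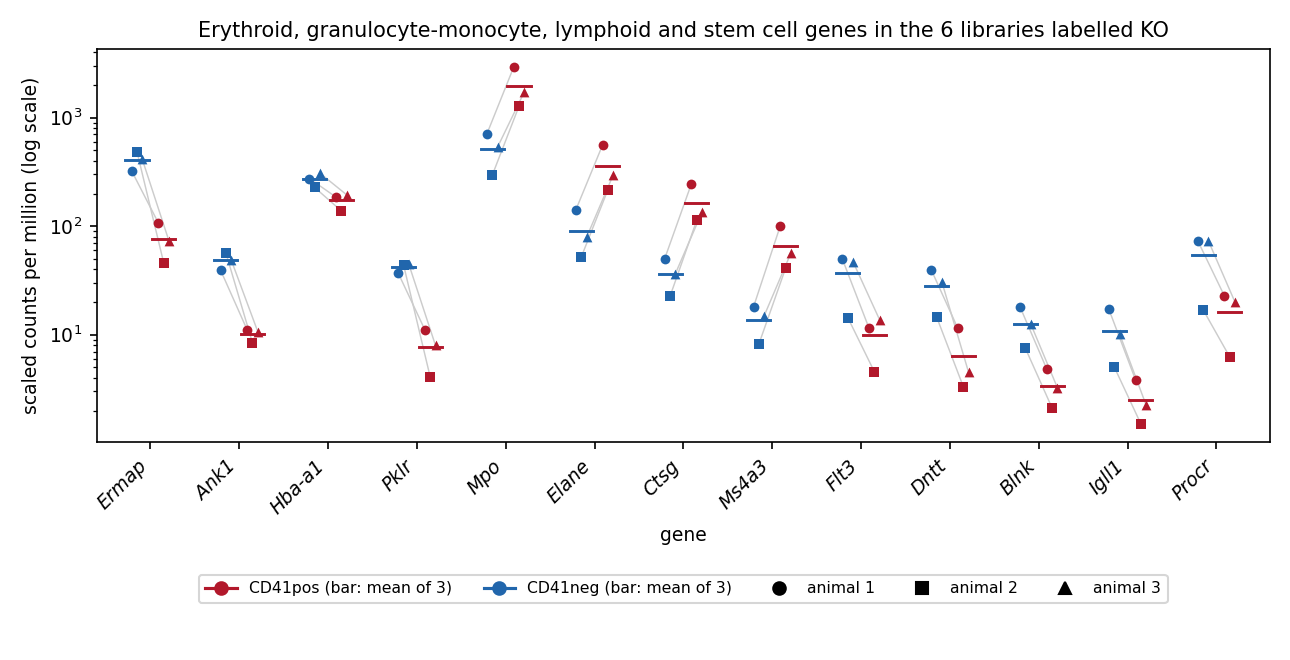
Levels of erythroid, granulocyte-monocyte, lymphoid and stem cell genes in the 6 libraries labelled KO, drawn as in the plot of platelet genes. The first 4 genes are lower and Mpo, Elane, Ctsg and Ms4a3 are higher in CD41pos in all 3 mice; for Flt3 and Procr mouse 2 is low in both gates, and for Procr the gates overlap while each mouse falls.

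Genes that mark HSCs went in both directions. Of 26 stem cell identity genes tested, 6 rose (23.1%) and 4 fell (15.4%), against 6.56% and 5.81% of all tested genes. The median was -0.06. Without mouse 2 the counts were 8 and 13, without mouse 3 they were 4 and 1, and in the 12-library fit 2 and 1. Ctnnal1 (alpha-catulin), used as a reporter gene of HSCs, stood at 62.3, 71.2 and 67.7 CPM in CD41pos and 21.5, 10.7 and 17.9 CPM in CD41neg and was higher by 2.04 ± 0.22 (log2, SE, adjusted p = 0.00445). Slamf1 (CD150), a defining surface marker of HSCs, stood at 123, 139.8 and 128 CPM in CD41pos and 62.6, 92.5 and 66 CPM in CD41neg and was higher by 0.83 ± 0.09 (log2, SE, adjusted p = 0.00459). Tek, the angiopoietin receptor TIE2, rose by 0.88 ± 0.10 (log2, SE, adjusted p = 0.00511), a call lost in the 12-library fit (adjusted p = 0.354), as was that of Slamf1 (0.0795). Procr, the endothelial protein C receptor, another HSC marker, stood at 22.7, 6.24 and 19.9 CPM in CD41pos and 73.3, 17 and 73 CPM in CD41neg. It fell by 1.69 (adjusted p = 0.0017), with overlapping gates and an adjusted p of 0.139 without the block.

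Kit, the stem cell factor receptor, stood at 834, 685 and 765 CPM in CD41pos and 1044, 889 and 1023 CPM in CD41neg and fell by 0.38 (adjusted p = 0.00473), without overlap, a call lost in the 12-library fit (0.835) and without mouse 3. Hlf, a transcription factor of HSCs, and Ly6a (Sca-1) fell by 0.93 and 0.89. Mecom, Prdm16, Bmi1 and Hoxa9, regulators of self-renewal, did not pass the test (-0.12, 0.28, -0.03 and -0.11). Cd48, which many HSC gates exclude, had means of 222 CPM in CD41pos and 186 in CD41neg, and Cd34 had means of 267 and 306; neither differed past the threshold. Transcripts of Kit, Slamf1, Procr and Ly6a were all detected in both gates. Whether the sort used these markers is not stated, so their detection does not check the cell type.

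Genes linked to HSC ageing gave 14 higher (43.8%) and 3 lower (9.4%) of 32 tested, against 6.56% and 5.81% of all tested genes. The median was 0.81. This list shares Clu, Vwf, Itgb3, Mmrn1, Selp and Itga6 with the platelet lists, so it is not a separate measurement. Among members outside them, Ehd3, an endosomal protein, stood at 32.7, 49.8 and 45.1 CPM in CD41pos and 10.1, 18.4 and 13.5 CPM in CD41neg and was higher by 1.61 ± 0.11 (log2, SE, adjusted p = 0.00175). Fhl1, a LIM domain protein, stood at 21.2, 22.3 and 20.7 CPM in CD41pos and 2.68, 1.43 and 2.72 CPM in CD41neg, a difference of 3.26 ± 0.25 (log2, SE, adjusted p = 0.00191). Nupr1, a stress-response factor, rose by 1.86. The metallothioneins Mt1 and Mt2, which bind zinc, fell by 1.37 and 2.40. The 14 higher calls became 9 in the 12-library fit, and the 3 lower calls became 0.

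**Figure D3:**
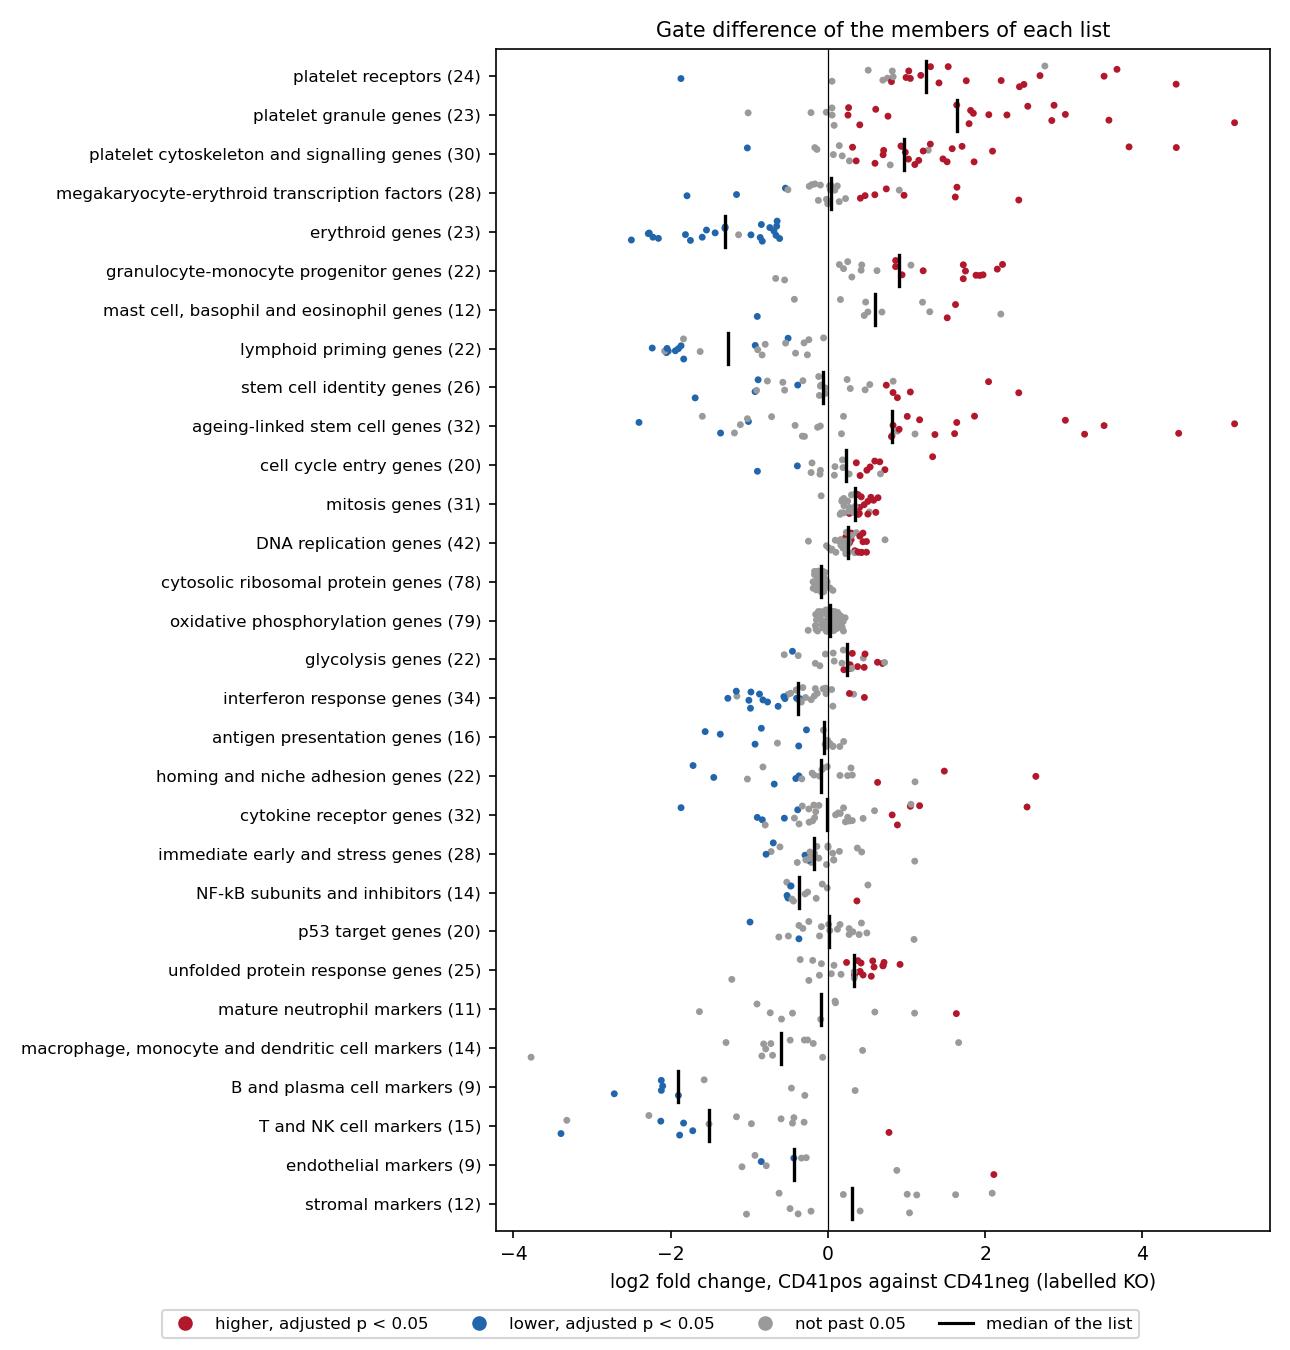
Log2 fold change, CD41pos against CD41neg, of every tested member of the 30 lists in the libraries labelled KO, with the number tested in brackets. Red points passed an adjusted p of 0.05 as higher and blue points as lower, grey points did not pass it, and black bars are list medians; the 3 platelet lists lie mostly right of 0 and the 23 erythroid genes all left of it.

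Genes of cell division were slightly higher in CD41pos. Of 31 mitosis genes, 14 rose (45.2%) and none fell (median 0.35). Of 42 DNA replication genes, 14 rose (33.3%) and none fell (median 0.25). Among all tested genes 6.56% rose and 5.81% fell. Kif23, a kinesin of cytokinesis, stood at 133, 116 and 123 CPM in CD41pos and 76.9, 84.5 and 80.1 CPM in CD41neg, a difference of 0.61 ± 0.08 (log2, SE, adjusted p = 0.00748). Prc1, which bundles spindle microtubules, stood at 275, 262 and 272 CPM in CD41pos and 159, 197 and 184 CPM in CD41neg, a difference of 0.58 ± 0.08 (log2, SE, adjusted p = 0.00872). Mcm3, a subunit of the replicative helicase, stood at 659, 626 and 598 CPM in CD41pos and 534, 518 and 473 CPM in CD41neg and was higher by 0.29 ± 0.04 (log2, SE, adjusted p = 0.0113). Mki67, the proliferation marker, differed by 0.34 without passing the test. Of 20 cell cycle entry genes, 8 rose and 2 fell, counts that became 0 and 0 in the 12-library fit and 2 and 0 without mouse 3. Among them Ccnd3 (cyclin D3) rose by 0.66, Mycn by 1.33 and E2f1 by 0.60, while Myc and Ccne1 (cyclin E1) fell by 0.39 and 0.90.

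These counts moved with the mouse left out. The mitosis count of 14 was 2 without mouse 1, 30 without mouse 2 and 0 both without mouse 3 and in the 12-library fit, and the DNA replication count of 14 was 2, 34, 0 and 0. Within mouse 1, 2 and 3 the median log2 difference was 0.51, 0.14 and 0.38 over mitosis genes and 0.30, 0.12 and 0.33 over replication genes, so the direction was shared and mouse 2 had the smallest difference. Of the 31 mitosis genes, 24 were higher in all 3 mice and 0 lower in all 3, against 4580 and 4600 of 17969 tested genes.

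Protein-folding genes of the endoplasmic reticulum were higher in CD41pos. Of 25 unfolded protein response genes, 14 rose (56.0%, against 6.56% of all tested genes) and none fell. The median was 0.34. Hsp90b1 (GRP94) stood at 795, 873 and 768 CPM in CD41pos and 529.8, 590.3 and 509 CPM in CD41neg and was higher by 0.57 ± 0.04 (log2, SE, adjusted p = 0.00191). Hspa5 (BiP), the main chaperone, stood at 1094, 1235 and 1045 CPM in CD41pos and 794, 897 and 808 CPM in CD41neg, a difference of 0.42 ± 0.04 (log2, SE, adjusted p = 0.00377). Manf and Sdf2l1 rose by 0.70 and 0.92, and the disulfide isomerase Pdia6 by 0.59. The sensors and transcription factors of the response did not pass the test: Atf6 differed by 0.04, Ern1 (IRE1) by -0.19, Xbp1 by 0.33, Atf4 by -0.11 and Ddit3 (CHOP) by -0.35. The 14 calls became 3 in the 12-library fit and 5 without mouse 3.

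In contrast to these groups, none of 78 cytosolic ribosomal protein genes and none of 79 oxidative phosphorylation genes passed the threshold by edgeR's quasi-likelihood test (12 and 8 at an unadjusted p below 0.05). Of the ribosomal genes DESeq2 called 0, limma-trend on TPM called 3 or 4 lower with the 2 pseudocounts, and edgeR called 1 lower with its newer method and 1 with the filter of 10 CPM. Of the oxidative phosphorylation genes DESeq2, limma-trend and edgeR with either other filter each called 1 lower, and without mouse 2 edgeR called 9 higher. Their medians were -0.09 and 0.02, and their fold changes stayed between -0.19 and 0.06 and between -0.25 and 0.22. Of 22 glycolysis genes (median 0.24), 9 rose (40.9%) and 1 fell (4.5%), against 6.56% and 5.81% of all tested genes. Pgk1 (phosphoglycerate kinase) rose by 0.38 ± 0.05 (log2, SE, adjusted p = 0.0098), Ldha (lactate dehydrogenase A) by 0.28 ± 0.04 (log2, SE, adjusted p = 0.00916) and Pkm, the pyruvate kinase of non-erythroid cells, by 0.69, while Pfkm, the muscle form of phosphofructokinase also made in red cells, fell by 0.45. The 9 higher calls became 4 without the block, 5 without mouse 1, 0 without mouse 3 and 0 in the 12-library fit. The 1 lower call became 0 without mouse 3 and 0 in the 12-library fit.

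Interferon response genes were lower in CD41pos. Of 34 tested, 13 fell (38.2%) and 2, Ifit2 and Ifitm3, rose (5.9%), against 5.81% and 6.56% of all tested genes. The median was -0.38. Irf7, a transcription factor of the response, stood at 19.8, 26.9 and 20.2 CPM in CD41pos and 40.1, 57.6 and 36.9 CPM in CD41neg, a difference of -1.01 ± 0.10 (log2, SE, adjusted p = 0.00348). Rtp4 stood at 15.5, 16.3 and 14.7 CPM in CD41pos and 29.5, 31.3 and 30.7 CPM in CD41neg, a difference of -0.99 ± 0.11 (log2, SE, adjusted p = 0.00456). Iigp1, an interferon-inducible GTPase, was several times higher in mouse 2 than in the other 2 mice: it stood at 20.0, 106 and 29.7 CPM in CD41pos and 42.9, 199 and 55.5 CPM in CD41neg, so that its gates overlapped, and its adjusted p was 0.00198 with the block and 0.512 without it. Ifih1 and Oas1a, sensors of double-stranded RNA, did not pass the test (-0.03 and 0.06). The 13 lower calls became 7 without the block, 21 without mouse 2, 2 without mouse 3 and 0 in the 12-library fit. The 2 higher calls became 0 without mouse 3 and 0 in the 12-library fit.

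**Figure D4:**
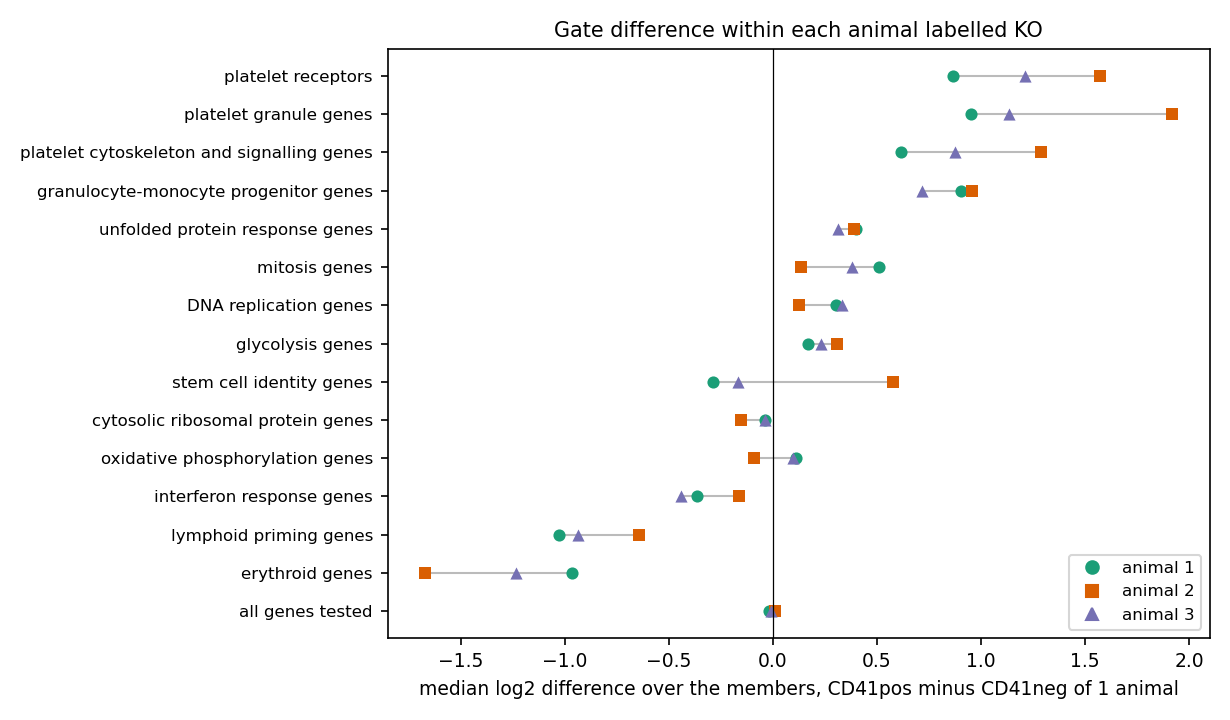
Median log2 difference, CD41pos minus CD41neg, over the tested members of 14 lists and over all tested genes, computed within each of the 3 mice labelled KO from log2(CPM + 0.5). Platelet lists lie above 0 and erythroid, lymphoid and interferon lists below 0 in every mouse; stem cell identity genes lie at 0.58 in mouse 2 and at -0.29 and -0.17 in mice 1 and 3.

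The medians by mouse showed where the animals differed. Over the erythroid list they were -0.96, -1.67 and -1.23 in mouse 1, 2 and 3, and over the platelet granule list 0.95, 1.92 and 1.14, so the gates of mouse 2 lay farthest apart in both. Over the stem cell identity list they were -0.29, 0.58 and -0.17, with 9, 19 and 12 of 26 genes higher in CD41pos. Over the oxidative phosphorylation list they were 0.11, -0.09 and 0.10. In all tested genes the medians were -0.02, 0.01 and -0.01.

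Adhesion and cytokine receptors were called in both directions. Of 22 homing and niche adhesion genes, 3 rose (13.6%) and 5 fell (22.7%), against 6.56% and 5.81% of all tested genes, and 2 rose and 2 fell in the 12-library fit. Podxl (podocalyxin), a sialomucin related to CD34, stood at 171, 257 and 208 CPM in CD41pos and 31.4, 44.4 and 26.3 CPM in CD41neg and was higher by 2.64 ± 0.12 (log2, SE, adjusted p = 0.000361). Cd82, a tetraspanin of HSCs, stood at 33.6, 17.5 and 26.2 CPM in CD41pos and 78.6, 79 and 86.3 CPM in CD41neg and fell by 1.71. Itgb7 and Itga4, the chains of integrin alpha-4 beta-7, fell by 1.45 and 0.68, a call of Itga4 that was lost in the 12-library fit (adjusted p = 0.0954). Cxcr4, the receptor that holds HSCs in the niche, did not pass the test (0.25). Of 32 cytokine receptor genes, 5 rose and 5 fell (15.6% each), against 6.56% and 5.81% of all tested genes. These counts became 1 and 1 in the 12-library fit, 7 and 11 without mouse 2 and 2 and 2 without mouse 3. Beside Tek, Lifr, the receptor of leukaemia inhibitory factor, rose by 2.53 from a mean of 0.921 CPM.

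Of the markers of other marrow cells, none of 14 macrophage, monocyte and dendritic cell genes and none of 12 stromal genes tested passed the threshold by edgeR (5 and 4 at an unadjusted p below 0.05), where DESeq2 called 4 lower in the former and 1 higher and 1 lower in the latter. Other edgeR fits called 6 of the former lower without mouse 2, 2 with the newer method, 1 in the 12-library fit and 4, beside 1 higher, with no filter on low counts; of the latter they called 2 lower without mouse 2 and 1 higher with no filter. The summed level of the former ranged from 198 to 281 CPM in CD41pos and from 102 to 345 CPM in CD41neg, and 9 of the 16 stromal genes were below 1 CPM. Of 9 endothelial markers, Kdr (VEGF receptor 2) rose (11.1%) and Plvap and Egfl7 fell (22.2%), against 6.56% and 5.81% of all tested genes. These calls were all lost in the 12-library fit. Cdh5, the endothelial cadherin, had means of 0.241 and 0.418 CPM.

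The same gates were compared in the libraries labelled WT to see which KO differences were shared. There 709 of 19395 genes (3.66%) passed the threshold, 359 (1.85%) higher and 350 (1.8%) lower in CD41pos. That count comes from the fit of all 12 libraries, in which 450 genes passed between the KO gates. The 2222 KO calls come from the KO libraries alone, so the counts under the 2 labels are not directly comparable. Of the 2222 genes called in KO, 2004 (90.2%) had the same sign in WT, and 506 were called in both, which is 22.8% of the KO calls and 71.4% of the WT calls; 505 of these had the same sign. The test of the difference itself, the KO gate difference minus the WT gate difference, called 0 of 19395 genes at an adjusted p below 0.05 by edgeR, 920 at an unadjusted p below 0.05, and 75 by DESeq2. Between 2 libraries of 1 gate the SD of the log2 difference ranged from 0.281 to 0.699 in WT and from 0.190 to 0.497 in KO. These ranges reached higher in WT but overlapped. A further fit kept 1 WT library a gate (CD41pos WT3 and CD41neg WT3), with the spread then taken from the KO libraries. In CD41pos it left out WT1 and WT4, which lay close together (SD 0.281). It kept WT3, which lay apart from both (0.670 and 0.699). More genes passed there, but that fit changes both the WT libraries and the estimate of the spread, whose parts cannot be told apart. Each fit that left out 1 WT library gave 0.

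The fitted gate differences of some genes lay far apart under the 2 labels, with none of those named here past the adjusted threshold of the interaction by edgeR. Hs3st1 differed by 4.47 in KO and by 0.97 in WT, and the adjusted interaction p from edgeR was 0.34. Clu differed by 5.17 and 2.25, Alox12 by 3.83 and 0.41, Amotl2 by 4.07 and 0.65, and Fhl1 by 3.26 and 1.57. Kdr differed by 2.11 and -1.24. Treml1 went the other way, with 2.44 in KO and 3.81 in WT. Itga2b, at 2.17 and 2.59, Gp9, at 2.20 and 2.11, and Ermap, at -2.50 and -2.44, had similar differences under both labels, with adjusted interaction p-values of 0.98, 0.98 and 0.994.

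**Figure D5:**
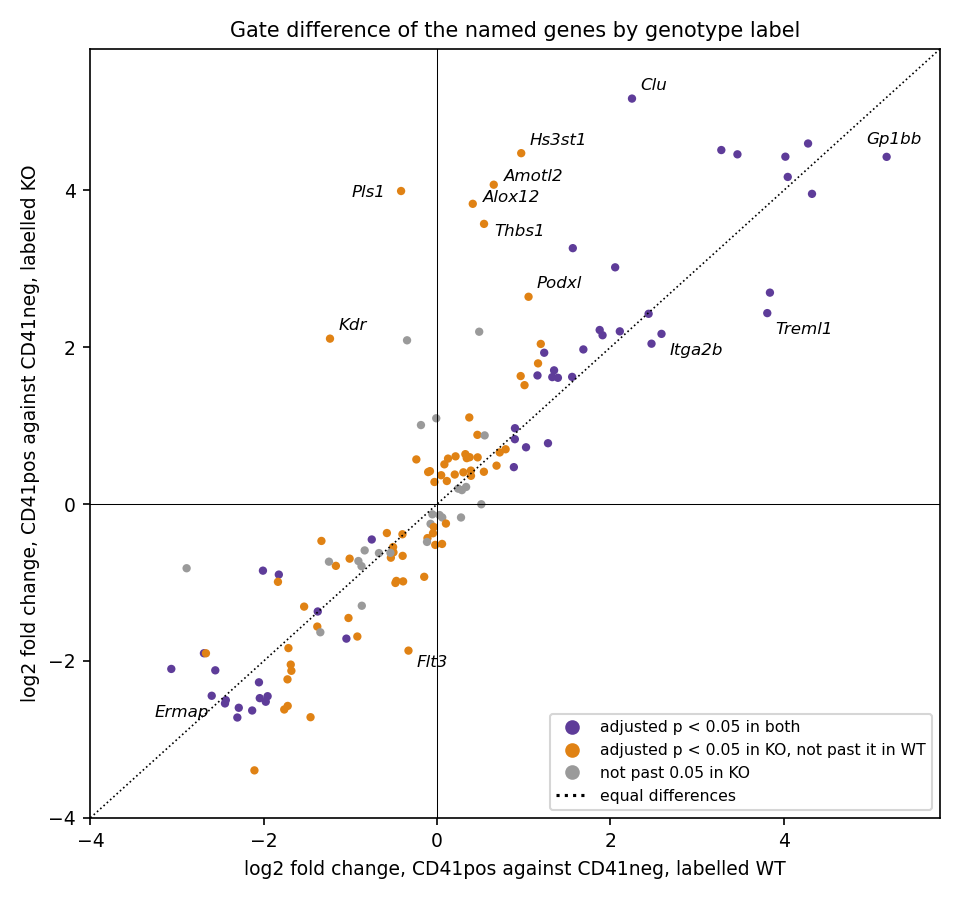
Log2 fold change, CD41pos against CD41neg, of the named genes in the libraries labelled WT (horizontal) and KO (vertical), with the line of equal differences dotted. KO values come from the fit of the KO libraries alone and WT values from the fit of all 12 libraries. Purple genes passed an adjusted p of 0.05 under both labels, orange genes in KO only by that threshold and grey genes not in KO; Kdr, Pls1, Alox12, Amotl2 and Hs3st1 lie well above the line and no point's interaction passed the adjusted threshold by edgeR.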

How the data were processed

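RNA of sorted HSCs was extracted with Qiagen's miRNeasy Micro columns and amplified with Takara's SMART-Seq v4 chemistry for low input, per the labels' protocols. The strand setting of the counting is not stated, and reads of overlapping or antisense genes may be mixed. The submitters' processing notes name FastQC 0.11.7, cutadapt 1.9.1, STAR 2.6.1e, featureCounts 1.6.2 and the mm10 build. The authors deposited a table of read counts per gene with no normalization, which every main test used, and a TPM table of the same genes, used as an alternative. Dates stood in place of 27 gene names among the counts; the TPM table, with its rows in the same order, supplied the names.

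The main comparison fitted the 6 KO libraries alone with edgeR 4.0.16 (R 4.3.3): filterByExpr, TMM scaling, gate plus mouse as a block, a two-sided quasi-likelihood test and Benjamini-Hochberg adjustment over 17969 genes with a threshold of 0.05. Only KO libraries entered because the comparison lies within KO and the spread between WT libraries is not part of it. Earlier work on these data had described 4 WT libraries as standing apart, and this was known when the choice was made. The block was kept since the labels pair the gates; same-numbered libraries deviated together from their gate means (correlations of 0.47, 0.65 and 0.57 over 10070 genes of at least 10 CPM), and no 2 libraries of a gate agreed within sampling noise (chi-square per degree of freedom of at least 13.5). The WT and interaction contrasts came from a fit of all 12 libraries with 4 group means and the mouse as a block within KO. Log2 fold changes are those of the fitted models and their SE derives from the F statistic. The script was tested on simulated data.

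Lists (30, with 759 distinct genes, of which 745 were tested; 8 entries had no row and 3 were found under an older symbol) are described by counts and medians, with no set test. The members and lists were chosen with earlier results of these data known. Named genes were Itga2b and Runx1 to Runx3; the 12 highest and 12 lowest fold changes among called genes of at least 10 CPM in the higher gate that moved the same way in all 3 mice, leaving out predicted, pseudo-, mitochondrial, small RNA and sex-linked genes; and up to 4 members of each list with the smallest adjusted p. A few genes that the rule names are not reported here. Other list members, and Xist, were named after their values were seen. Alternatives were no block, all 12 libraries, DESeq2 1.42.0 and its size factors, other filters, a minimum log2 change of 1, limma-trend (3.58.1) on TPM values in log2 with 1 or 0.1 added, leaving out each mouse and, chosen after seeing the data, edgeR's newer quasi-likelihood method and an interaction without 4 WT libraries. Gene places are from GENCODE vM21; promoters are the RefSeq entries of GRCm38.p6, first entry per symbol, with 12607 of the tested genes matched by symbol.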

Additional observations from a re-analysis of the deposited data

Results flagged for a closer look

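Kdr, the gene of VEGF receptor 2, is listed because all 3 CD41pos libraries lay above all 3 CD41neg libraries under the KO label and below them under the WT label. Of 17936 genes in both fits, 58 had this pattern and 36 the opposite one, 5 and 4 of them called in KO. Kdr is the named gene among them. It stood at 18.3, 28.5 and 14.7 CPM in CD41pos and 2.84, 6.47 and 4.98 CPM in CD41neg in KO, and at means of 8.70 and 20.5 CPM in WT. The gate difference in KO minus that in WT was 3.36 ± 0.70 (log2, SE), with an unadjusted p of 0.00062 and an adjusted p of 0.59 by edgeR, so the difference between the labels did not pass the threshold.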

How the results depend on the processing

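The count of 2222 genes between the KO gates was 1505 with no replicate block, of which 1461 were among the 2222 with the same direction. It was 450 with all 12 libraries and the block, 541 with all 12 and no block, and 104 with a minimum log2 change of 1, where the test asks more of each gene. DESeq2 gave 3253, its size factors in edgeR 2239, no filter on low counts 3330, a filter of 10 CPM in 3 libraries 2085, limma on log2(TPM + 1) 1583 and on log2(TPM + 0.1) 1507, and the newer quasi-likelihood method 2646. Leaving out 1 mouse gave 367 to 3647. No scaling moved the median of all genes by more than 0.1. Of 140 named genes, 116 were past the threshold; none reversed under any alternative, 27 lost their call with no replicate block, 64 with all 12 libraries and the block and 43 without mouse 3, and the cause was not tested. The interaction count of 0 was 0 with no replicate block, with DESeq2 size factors and in every fit without 1 mouse or WT library, 75 with DESeq2 and 4035 without the 4 WT libraries. The WT count of 709 was 1084 with no replicate block, 2136 with DESeq2, 679 with its size factors and 211 to 957 without 1 library or mouse. Pairing of the gates is not defined for WT, where numbers 3 and 4 alone are shared, so no paired fit was made there. Depth was similar across libraries; with 3 mice, genes of a few CPM have wide errors (Amotl2, 4.07 ± 0.65).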

Other observations

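Antigen presentation genes were called lower between the KO gates. Of 16 tested, 6 fell (37.5%, against 5.81% of all tested genes) and none rose (median -0.05). Cd74, the MHC class II invariant chain, stood at 32.1, 46.3 and 35.5 CPM in CD41pos and 123, 88.9 and 121 CPM in CD41neg, a difference of -1.56 ± 0.19 (log2, SE, adjusted p = 0.00603) without overlap, and Ciita, the class II master regulator, fell by 0.93. Class I genes did not pass the test: H2-K1 differed by -0.00, H2-D1 by 0.02 and B2m by -0.04. The 6 calls became 1 with no replicate block, 1 with all 12 libraries, 1 without mouse 1 and 1 without mouse 3.

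Of 14 NF-kB genes, 3 inhibitors fell (21.4%, against 5.81% of all tested genes), Nfkbia by 0.52, Tnfaip3 by 0.47 and Nfkbie by 0.51. The subunit Nfkb1 rose by 0.37, as 7.1% of the list against 6.56% of all tested genes. Without the block the 3 decreases did not pass (adjusted p = 0.107, 0.259 and 0.109). The 3 decreases became 0 with all 12 libraries, 0 without mouse 3 and 9 without mouse 2. The 1 increase became 0 with all 12 libraries and 0 without mouse 3. Of 28 immediate early and stress genes, 4 fell (14.3%, against 5.81% of all tested genes), among them the heat shock genes Hspa1a and Hspa1b. Hspa1a stood at 15.5, 204 and 22.2 CPM in CD41pos and 28.8, 299 and 34.3 CPM in CD41neg and Hspa1b at 22, 269 and 28.2 CPM in CD41pos and 41.3, 387 and 53 CPM in CD41neg, so mouse 2 was far above the others in both gates and the gates overlapped; without the block their adjusted p was 0.815 and 0.805. The 4 decreases became 0 with no replicate block, 0 with all 12 libraries, 0 without mouse 3 and 14 without mouse 2. Of 20 p53 target genes, 2 fell (10%, against 5.81% of all tested genes), Ccng1 by 0.37 and Trp53inp1 by 0.99, and Cdkn1a (p21) did not pass the test (0.27). The 2 decreases became 0 with all 12 libraries and 0 without mouse 3.

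Both libraries of mouse 2 lay above all 4 libraries of the other mice for 9.5% of tested genes and below them for 10.4%. The same shares were 4.7% and 6.5% for mouse 1 and 3.6% and 4.0% for mouse 3.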
